A study of Mus musculus with 4 samples.

Results

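The matrix metalloproteinases (MMPs), the ADAMTS proteases and the tissue inhibitors of metalloproteinases (TIMPs) were examined in mouse embryonic lung with and without *Hmga2*. Members were taken by a rule on gene symbols in the array's annotation, and each was represented by its probe set with the highest mean over all arrays. The rule itself uses no differences between genotypes, but members, classes and lists were chosen with earlier results of these data known. This gave 44 of 19938 named genes, of which 22 encode MMPs, 18 ADAMTS proteases and 4 TIMPs. *Mmp15* and *Adamts2* were not analysed here.

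MMPs are zinc-dependent endopeptidases that cut collagens, elastin and other proteins of the extracellular matrix. Most are secreted as inactive proenzymes that other proteases activate, and a smaller group is anchored in the cell membrane. ADAMTS proteases share this catalytic mechanism and carry thrombospondin repeats that hold them in the matrix, where they trim proteoglycans, procollagens, fibrillin-associated proteins or von Willebrand factor. TIMPs bind the active site of MMPs and block it, and TIMP3 also blocks ADAMTS proteases. In late fetal lung these enzymes work on a matrix that is being thinned and rebuilt as the distal airspaces widen into saccules.

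Total RNA of E18.5 lungs from C57BL/6 wild-type (WT, *Hmga2*+/+) and *Hmga2*-knockout (KO, *Hmga2*-/-) embryos was hybridised to Affymetrix arrays, with 1 array per sample and 2 arrays per genotype. The knockout is constitutive, so every cell of an embryo of this genotype should lack *Hmga2*. The paper lists C57BL/6 and *Hmga2*+/- mice and does not state the background of the knockout line. HMGA2 is a chromatin-bound protein of the high mobility group that is abundant in undifferentiated embryonic tissue. The labels call all arrays biological replicates, but both WT titles carry the same lung name, while the KO titles carry 2 names. The p-values therefore measure the spread between these arrays only, and with 2 against 2 an exact two-sided permutation test of a single gene could not fall below 0.333.

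Every value below is the deposited log2 expression value of a probe set, and every difference is the mean of the KO arrays minus the mean of the WT arrays on that scale. Probe sets bind their targets with different efficiency, so levels were compared between arrays and never between genes. The arrays had median values of 7.91 to 8.02. WT replicate 1 stood apart, with correlations to the other arrays of 0.976 to 0.985, against 0.992 to 0.997 among those others. The *Hmga2* probe set did not separate the genotypes, at 9.35 and 9.59 in WT and 9.65 and 9.39 in KO, and differed by 0.051 (SE 0.16, adjusted p = 0.892). Whether this probe set covers the deleted stretch could not be checked from the files, so the genotype rests on the labels, and the direction of each difference is that of the labelled groups. As a check of the tissue label, the surfactant gene *Sftpc* of alveolar type II cells was read at 14.13 and 14.05 in WT and 13.97 and 14.01 in KO. Markers of lung epithelium differed between the genotypes, and 4 of 12 fell, *Sftpd*, *Scgb1a1*, *Lamp3* and *Sftpa1*, by 3.07, 2.69, 1.12 and 1.10, against 0.702% of all genes called lower. Of the other 8, 4 had a higher mean in KO, *Nkx2-1*, *Cdh1*, *Krt18* and *Epcam*, the last by 0.69 with no overlap (adjusted p = 0.178). In whole lung, fewer cells of a type and less RNA per cell cannot be told apart.

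A block of members lies side by side in the genome. In the RefSeq annotation, *Mmp13*, *Mmp12*, *Mmp1b*, *Mmp3*, *Mmp1a*, *Mmp10*, *Mmp8*, *Mmp27*, *Mmp20* and *Mmp7* follow each other on chromosome 9 with 0 other protein-coding genes between them. Promoter windows of RefSeq (build GRCm38.p6), from 250 bases before to 50 bases after the annotated start, were found for 30 of the 44 members, in 33 windows. The motifs were searched on both strands, with the letters of the TATA box TATAAA, the AP-1 site TGAGTCA and the GC box GGGCGG, and none of their matches overlapped a match of another motif. The AP-1 letters stood in the windows of 7 members, *Mmp10*, *Mmp12*, *Mmp13*, *Mmp1a*, *Mmp1b*, *Mmp3* and *Mmp7*, all of the chromosome 9 block, and in 5.2% of all 32851 windows. *Mmp12* has a pair of windows, and its AP-1 and TATA letters lie at a start 2977 bases inside the gene, with none of the motifs in the window of its first start. TATA letters occurred in 11 members, 9 of them in the block, and in 13.6% of all windows. GC box letters occurred in 16 members, 0 of them in the block, and in 35.7% of all windows. The block also differed in base composition, with a median A+T content of 58.3% over its windows against 36.3% over those of the other members. The median over all 32851 windows lay between these, at 47.3%.

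The last 120 bases before the start are shown for *Mmp8*, the gene of the block with the largest difference between genotypes, for 4 neighbours with AP-1 letters, and for *Adamts18* and *Timp3*, the members with the largest differences in their families. Capitals mark the letters of any of the 3 motifs. The stretches lie at chr9:7558309-7558428 (*Mmp8*), chr9:7272394-7272513 (*Mmp13*), chr9:7464021-7464140 (*Mmp1a*), chr9:7445702-7445821 (*Mmp3*) and chr9:7502222-7502341 (*Mmp10*), all on the + strand, at chr8:113848840-113848959 on the - strand (*Adamts18*) and at chr10:86300292-86300411 on the + strand (*Timp3*).
*Mmp8*: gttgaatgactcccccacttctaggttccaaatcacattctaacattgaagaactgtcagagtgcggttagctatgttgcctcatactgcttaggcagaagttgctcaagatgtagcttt
*Mmp13*: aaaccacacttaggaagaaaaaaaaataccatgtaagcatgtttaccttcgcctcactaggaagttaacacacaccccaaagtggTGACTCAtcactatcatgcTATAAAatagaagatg
*Mmp1a*: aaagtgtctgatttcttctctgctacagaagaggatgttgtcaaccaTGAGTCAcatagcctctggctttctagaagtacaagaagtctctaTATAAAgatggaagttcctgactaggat
*Mmp3*: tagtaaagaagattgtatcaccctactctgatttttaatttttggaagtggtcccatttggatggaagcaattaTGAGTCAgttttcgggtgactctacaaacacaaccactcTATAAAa
*Mmp10*: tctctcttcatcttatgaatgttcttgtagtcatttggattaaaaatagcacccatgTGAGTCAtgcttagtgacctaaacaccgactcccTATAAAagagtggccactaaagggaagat
*Adamts18*: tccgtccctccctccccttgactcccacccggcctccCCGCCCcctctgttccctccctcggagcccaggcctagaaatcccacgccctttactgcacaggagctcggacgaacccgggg
*Timp3*: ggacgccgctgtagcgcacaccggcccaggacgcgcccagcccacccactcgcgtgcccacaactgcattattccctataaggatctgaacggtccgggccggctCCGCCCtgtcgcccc
In the 4 neighbours of *Mmp8* the AP-1 letters began 35 (*Mmp13*), 46 (*Mmp3*), 63 (*Mmp10*) and 73 (*Mmp1a*) bases before the annotated start. The *Mmp8* stretch held none of the 3 motifs, and its TATA letters, on the opposite strand, began 3 bases before the start. *Adamts18* and *Timp3* each held 1 GC box in the stretch shown, 83 and 15 bases before the start. A match of letters is a description of the window and says nothing of binding.

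No member was called at an adjusted p under 0.05 by limma, against 0.782% of all 19938 genes. At an unadjusted p under 0.05, *Adamts18*, *Adamts7* and *Adamts5* were higher in KO (5.88% of all genes) and *Mmp8*, *Adamts15*, *Timp3*, *Adamts14*, *Adamts17* and *Adamts1* were lower (8.58%), which is 9 of 44 members against 14.5% of all genes. Values of WT and KO did not overlap for 9 members that were higher in KO and for 16 that were lower, against 17.6% and 31.8% of all genes. *Adamts18* was the member past 2-fold upward and *Mmp8* the member past 2-fold downward, against 0.772% and 1.09% of all genes. Leaving out WT replicate 1 gave 6 calls, 1 higher and 5 lower, against 8.22% of all genes in that fit. Leaving out WT replicate 2 gave 19, 9 higher and 10 lower, against 31.6%. In those fits 1 array stands for the WT group and is assumed to vary like the KO arrays. Without KO replicate 1 or KO replicate 2 the count was 0. The median difference over all members was -0.05, and that over all genes was -0.05 too. By family the medians were -0.10 for MMPs, -0.04 for ADAMTS proteases and 0.11 for TIMPs, and the MMP median became 0.030 after cyclic loess normalization.

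**Figure D1:**
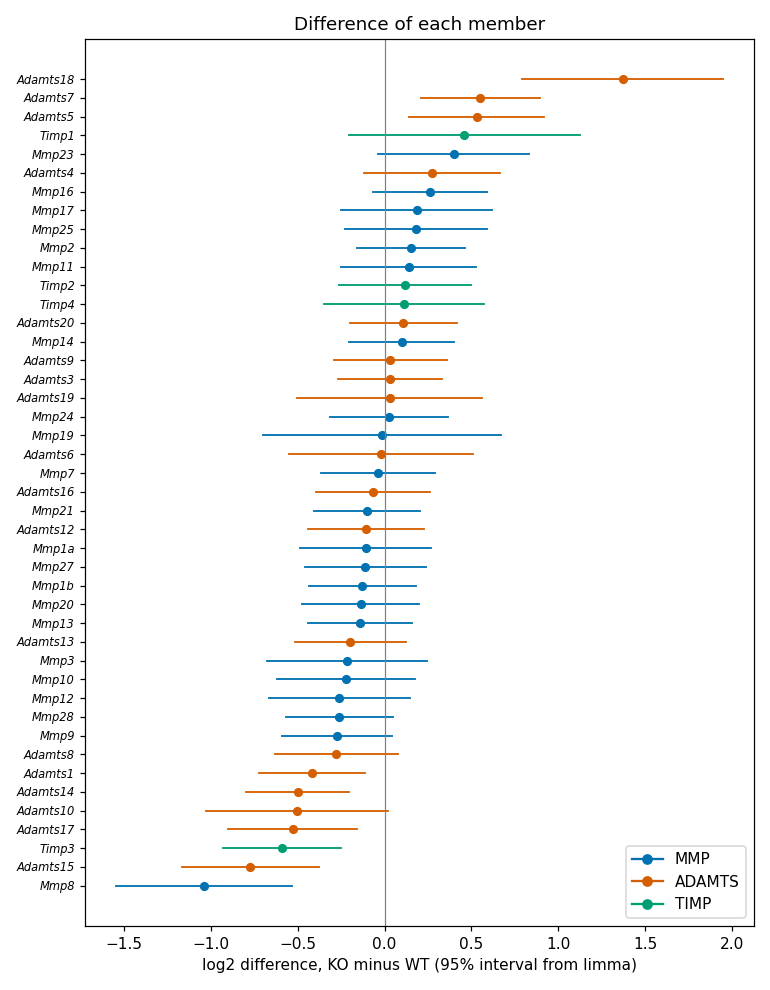
Log2 difference of each of the 44 members, KO minus WT (x axis), ordered by size, with the 95% interval of the limma fit over 2 KO and 2 WT arrays as a line. *Adamts18* stands highest at 1.37 and *Mmp8* lowest at -1.04, and the intervals of 9 members leave out 0.

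Among the collagenases, which cut the triple helix of fibrillar collagens, *Mmp8* differed most. *Mmp8*, the collagenase stored in neutrophil granules, was measured at 7.74 and 7.65 in WT and 6.96 and 6.35 in KO. The KO arrays lay below both WT arrays, and KO replicate 2 was the lowest. The difference was -1.04 (SE 0.21, 2.06-fold lower, adjusted p = 0.0957), and -0.99 without WT replicate 1. *Mmp13*, the collagenase of cartilage and bone formation, was measured at 6.16 and 6.19 in WT and 6.02 and 6.04 in KO, groups that did not overlap but lay close together. Its difference of -0.14 (SE 0.12) had an adjusted p of 0.602. *Mmp1b*, a mouse relative of interstitial collagenase, was read at 4.49 and 4.56 in WT and 4.35 and 4.45 in KO and differed by -0.13 (SE 0.13, adjusted p = 0.644), or by 0.034 after cyclic loess normalization. All 4 collagenases had a lower mean in KO, against 58.8% of all genes. After cyclic loess 2 of the 4 had a lower mean, and without WT replicate 1, 3 did. *Mmp1a* and *Mmp1b* are near copies of each other, so their probe sets may share signal and their values are uncertain.

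Gelatinases cut denatured collagen and the type IV collagen of basement membranes. *Mmp9*, which neutrophils also carry, was measured at 7.29 and 7.13 in WT and 6.92 and 6.94 in KO, with both KO arrays below both WT arrays. Its difference was -0.28 (SE 0.13, adjusted p = 0.397). *Mmp2*, which fibroblasts secrete, was measured at 12.36 and 12.48 in WT and 12.59 and 12.54 in KO. Its KO arrays lay just above its WT arrays, and the difference was 0.15 (SE 0.13, adjusted p = 0.596).

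Because *Mmp8* and *Mmp9* are carried by neutrophils, a list of 12 other neutrophil genes was read beside them. All 12 had a lower mean in KO, against 58.8% of all genes, with a median of -0.25, and 9 did not overlap between the genotypes, against 31.8% of all genes. Their mean log2 level was 6.82 and 6.76 in WT and 6.49 and 6.46 in KO. The calprotectin gene *S100a8*, at 7.99 and 8.01 in WT and 7.25 and 7.01 in KO, differed most, by -0.87 (SE 0.14, adjusted p = 0.0606). Of the primary granule genes, *Mpo*, which encodes myeloperoxidase, differed by -0.24 and *Prtn3*, which encodes proteinase 3, by -0.014. After cyclic loess 9 of the 12 were lower, and with 1 array left out 11 or 12 were lower. Other cell types' markers lay the same way, with 9 of 10 endothelial genes lower (median -0.31, 8 without overlap) and 6 of 6 red cell genes lower (median -0.11, 5 without overlap). Among the members, *Mmp25*, which is held on leukocytes, went the other way, with a difference of 0.18 and overlap. The arrays carry no detection call, so none of these genes can be placed at background, and the part of neutrophil content in the *Mmp8* and *Mmp9* values was not tested.

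**Figure D2:**
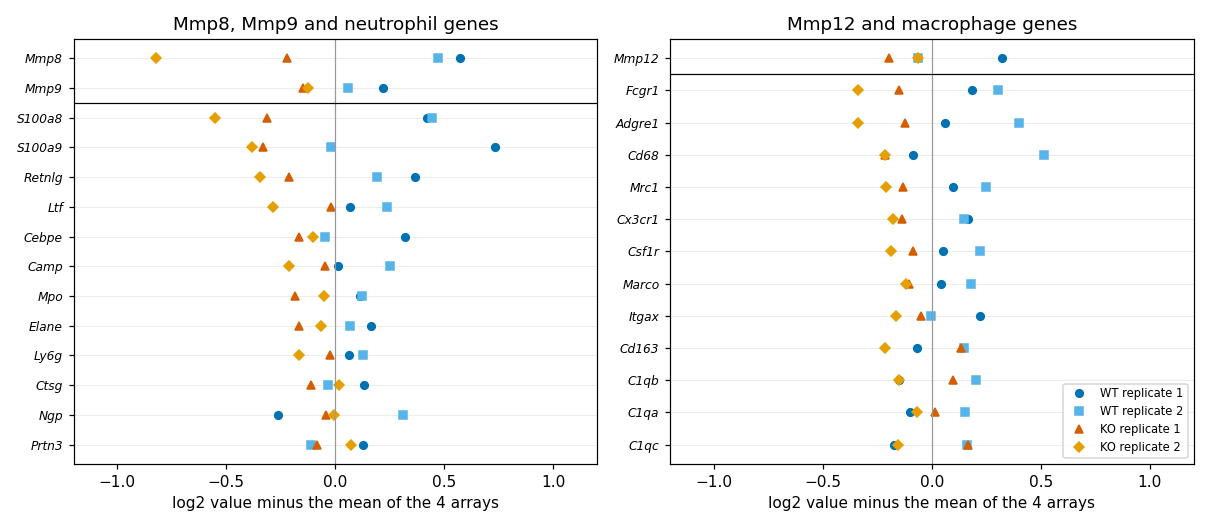
Log2 value of each gene on each array relative to that gene's average of all 4 arrays (x axis), for *Mmp8* and *Mmp9* above 12 neutrophil genes (left) and *Mmp12* above 12 macrophage genes (right). For *Mmp8* and for *S100a8*, both KO arrays lie left of both WT arrays, while KO and WT points of *Prtn3* are mixed.

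Stromelysins and matrilysin, which act on proteoglycans, laminin and other proenzymes, showed small differences. *Mmp10* was measured at 6.29 and 5.91 in WT and 5.90 and 5.85 in KO, so that WT replicate 1 stood apart from the remaining arrays. The difference of -0.22 (SE 0.16, adjusted p = 0.545) became -0.031 without that array. *Mmp3* gave 5.81 and 5.47 in WT and 5.23 and 5.62 in KO, with the groups overlapping, and a difference of -0.22 (SE 0.19, adjusted p = 0.605), or -0.046 without WT replicate 1. *Mmp11*, a stromelysin made by stroma, gave 9.96 and 10.31 in WT and 10.34 and 10.21 in KO. Its difference of 0.14 (SE 0.16, adjusted p = 0.696) turned to -0.035 without WT replicate 1.

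Metalloelastase and the MMPs outside the other classes all had a lower mean in KO, 6 of 6, against 58.8% of all genes. Their median was -0.12. After cyclic loess 4 of the 6 were lower, and after centring 5 were. *Mmp12*, the elastin-cutting enzyme of macrophages, was measured at 6.56 and 6.18 in WT and 6.05 and 6.17 in KO. WT replicate 1 was the high array, and the difference of -0.26 (SE 0.17, adjusted p = 0.498) was -0.068 without it. Of 12 macrophage genes, 11 had a lower mean in KO, against 58.8% of all genes, with a median of -0.25, and 8 did not overlap, against 31.8%. With 1 array left out 8 to 12 of the 12 were lower, and 8 was the count without WT replicate 2. Their mean log2 level was 8.26 and 8.46 in WT and 8.19 and 8.04 in KO, and the part of macrophage content in the *Mmp12* value was not tested. *Mmp28*, an epithelial MMP named epilysin, was measured at 8.36 and 8.43 in WT and 8.09 and 8.19 in KO. Its groups did not overlap, and the difference was -0.26 (SE 0.13, adjusted p = 0.407). The tooth enamel enzyme *Mmp20* was read at 6.13 and 6.23 in WT and 6.15 and 5.93 in KO, with overlap, a difference of -0.14 (SE 0.14) and an adjusted p of 0.652.

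Membrane-anchored MMPs, which act at the cell surface and activate secreted proenzymes, all had a higher mean in KO, 6 of 6, against 41.2% of all genes. Their median was 0.18, and all 6 were higher after centring and after cyclic loess. Without WT replicate 1, however, 3 of 6 were higher and the median was 0.02. *Mmp23*, which is held in the membrane as a precursor, was measured at 8.39 and 8.83 in WT and 9.09 and 8.92 in KO. Both KO arrays lay above both WT arrays, and the difference of 0.40 (SE 0.18, adjusted p = 0.383) was 0.18 without WT replicate 1. *Mmp16*, a transmembrane activator of MMP2, was measured at 7.57 and 7.57 in WT and 7.94 and 7.73 in KO. The WT arrays were nearly equal, both KO arrays lay above them, and the difference was 0.26 (SE 0.14, adjusted p = 0.424). *Mmp25*, which a lipid anchor holds on leukocytes, gave 6.47 and 6.86 in WT and 6.91 and 6.77 in KO and overlapped. It differed by 0.18 (SE 0.17, adjusted p = 0.627), or by -0.014 without WT replicate 1.

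The 10 genes of the chromosome 9 block come from 3 of these classes, and all 10 had a lower mean in KO, against 58.8% of all genes, with a median of -0.14. *Mmp8* was the member of the block with an unadjusted p under 0.05, and the other 9 differed by -0.26 to -0.04. For 5 of the 10 the groups did not overlap, against 31.8% of all genes, and with 1 array left out 8 to 10 of the 10 were lower. Cyclic loess turned *Mmp1a*, *Mmp1b*, *Mmp27* and *Mmp7* to a higher mean in KO, and centring turned *Mmp7*. Without WT replicate 1, 8 of the 10 were lower, all but *Mmp1a* and *Mmp27*. None of the 10 was among the brightest 60% of genes. Several genes of the block are close in sequence, so signal shared between their probe sets is possible and was not tested.

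**Figure D3:**
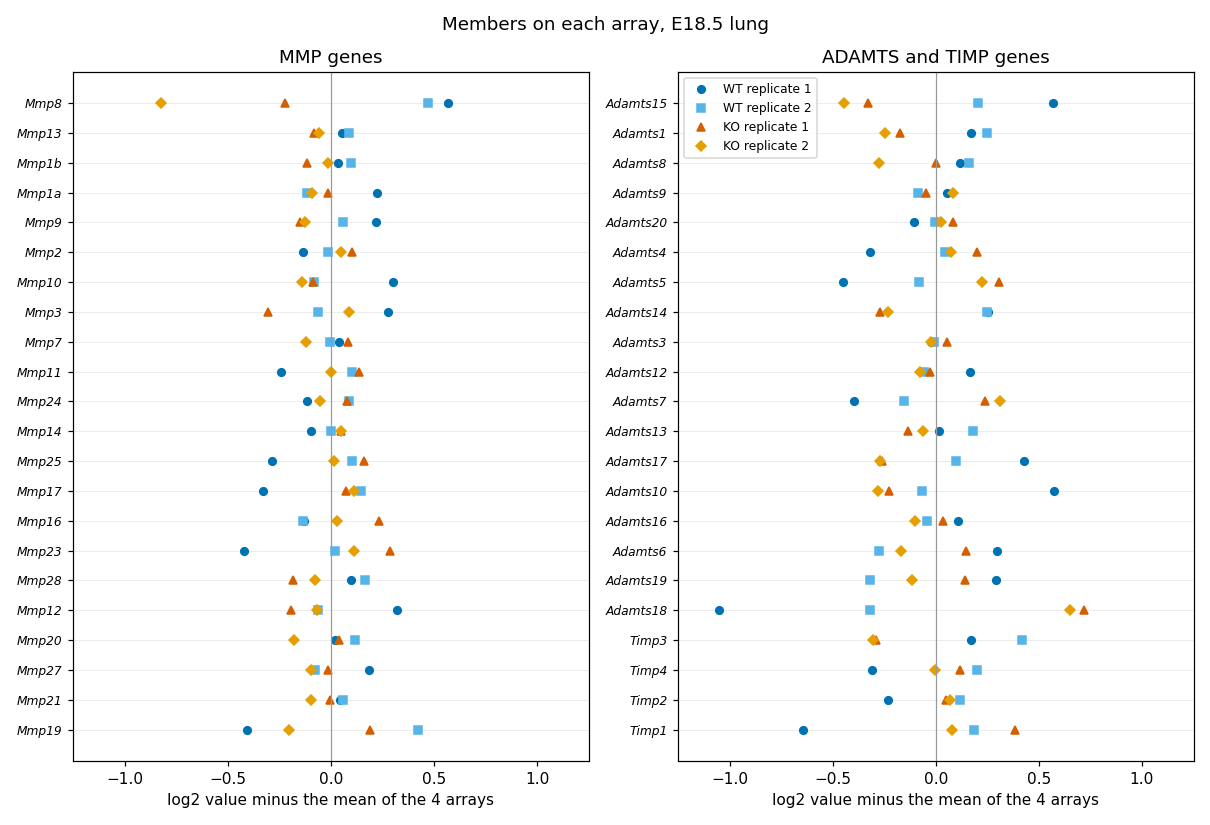
Log2 value of each member on each of the 4 arrays relative to that gene's average of them (x axis), with 22 MMP genes (left) and 18 ADAMTS and 4 TIMP genes (right) in order of their classes. In *Adamts18* both KO arrays lie right of both WT arrays. The gap between the WT arrays is wide in *Adamts18* itself, at 0.74, and in *Timp1*, *Mmp19* and *Adamts10*, among others.

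ADAMTS proteoglycanases, which cut aggrecan and versican, split by gene. *Adamts15* was measured at 8.88 and 8.52 in WT and 7.98 and 7.87 in KO. The KO arrays lay below both WT arrays, and the difference was -0.77 (SE 0.16, 1.71-fold lower, adjusted p = 0.108), or -0.59 without WT replicate 1. Its neighbour on chromosome 9, *Adamts8*, also had a lower mean in KO, by 0.28. *Adamts1*, a protease needed for ovulation, was measured at 11.52 and 11.60 in WT and 11.17 and 11.11 in KO. KO lay below WT on all arrays, by 0.42 on average (SE 0.13, adjusted p = 0.212). *Adamts5*, the main aggrecanase of mouse cartilage, sits beside *Adamts1* on chromosome 16 and was measured at 7.71 and 8.08 in WT and 8.47 and 8.38 in KO. Here both KO arrays lay above both WT arrays, with a difference of 0.53 (SE 0.16, adjusted p = 0.217), and 0.35 without WT replicate 1. In all, the KO mean was higher for 4 and lower for 3 of the 7 proteoglycanases.

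Procollagen N-proteinases remove the amino-terminal propeptide of fibrillar procollagens. *Adamts14* was measured at 8.78 and 8.78 in WT and 8.26 and 8.30 in KO. The WT arrays were nearly equal, as were the KO arrays, and the difference of -0.50 (SE 0.12, adjusted p = 0.149) was -0.50 without WT replicate 1. *Adamts3*, which also takes part in the processing of VEGF-C, had 16 probe sets. Its brightest gave 9.31 and 9.32 in WT and 9.38 and 9.31 in KO, with overlap and a difference of 0.031 (SE 0.13, adjusted p = 0.921), which was -0.024 after cyclic loess. All 16 probe sets had a higher mean in KO, from 0.002 to 0.52 with a median of 0.14. Of them 6 did not overlap, against 17.6% of all genes. The 16 read the same RNA extracts and are no further replicates. The probe set with the largest difference gave 7.85 and 8.23 in WT and 8.66 and 8.45 in KO. The value for *Adamts3* therefore depended on the probe set, and the brightest one was near the low end.

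*Adamts7* and *Adamts12* cut cartilage oligomeric matrix protein, and their values differed. *Adamts7* was measured at 8.94 and 9.19 in WT and 9.58 and 9.65 in KO, higher on each KO array than on each WT array, with a difference of 0.55 (SE 0.14, 1.46-fold, adjusted p = 0.162), and 0.43 without WT replicate 1. For *Adamts12* the values were 10.31 and 10.09 in WT and 10.12 and 10.07 in KO, which overlapped, and the difference of -0.11 (SE 0.14, adjusted p = 0.727) turned to 0.006 without WT replicate 1. Genes of cartilage, a tissue of the airway wall, were read beside them. Of these, 8 of 13 had a higher mean in KO, against 41.2% of all genes, with a median of 0.09. Their mean log2 level was 7.52 and 7.56 in WT and 7.64 and 7.65 in KO, and the part of cartilage in the *Adamts5* and *Adamts7* values was not tested.

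*Adamts13*, which cuts von Willebrand factor and is made mainly in liver, was measured at 7.07 and 7.23 in WT and 6.92 and 6.99 in KO. KO lay below WT, by 0.20 (SE 0.13, adjusted p = 0.512).

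Fibrillin-associated and orphan ADAMTS genes held the largest difference of all members. *Adamts18*, a protease with few known substrates, was measured at 6.86 and 7.60 in WT and 8.64 and 8.57 in KO. Both KO arrays were close to each other and above both WT arrays, which were 0.74 apart. The difference was 1.37 (SE 0.24, 2.59-fold higher, adjusted p = 0.0737), and 1.003 without WT replicate 1. *Adamts17*, whose loss in humans gives a Weill-Marchesani-like disorder of fibrillin-rich tissue, had 5 probe sets. The brightest gave 11.98 and 11.65 in WT and 11.29 and 11.28 in KO, and the difference was -0.53 (SE 0.15, adjusted p = 0.201). In all 5 probe sets both KO arrays lay below both WT arrays, as in 31.8% of all genes, with differences of -0.72 to -0.53. These probe sets read the same RNA extracts and are no further replicates. *Adamts10*, which binds fibrillin-1 microfibrils, was measured at 11.37 and 10.74 in WT and 10.58 and 10.52 in KO. WT replicate 1 was high, and the difference of -0.51 (SE 0.22, adjusted p = 0.358) was -0.19 without it.

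**Figure D4:**
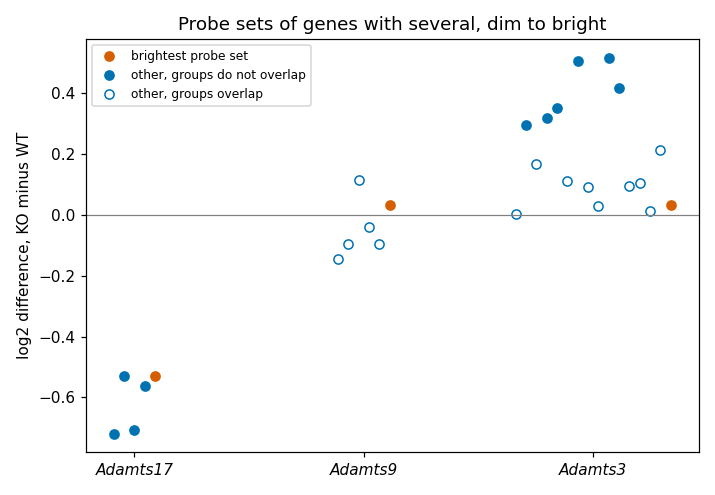
Log2 difference, KO minus WT (y axis), of every probe set of the 3 members with several, ordered from dim to bright within a gene. All 5 of *Adamts17* lie between -0.72 and -0.53, the 6 of *Adamts9* between -0.14 and 0.11, and the 16 of *Adamts3* between 0.002 and 0.52.

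Among the inhibitors, *Timp3* had a lower mean in KO and the other 3 a higher one, though 1 of the 4 was higher without WT replicate 1. *Timp3*, which binds to the matrix and blocks ADAMTS proteases as well as MMPs, was measured at 12.67 and 12.92 in WT and 12.21 and 12.19 in KO. The KO arrays were nearly equal and lay below both WT arrays, with a difference of -0.59 (SE 0.14, 1.51-fold lower, adjusted p = 0.141), and -0.71 without WT replicate 1. *Timp1*, an inducible secreted inhibitor, was measured at 8.22 and 9.05 in WT and 9.25 and 8.94 in KO. WT replicate 1 was low and the groups overlapped, and the difference of 0.46 (SE 0.28, adjusted p = 0.475) was 0.043 without that array. *Timp2*, which joins MMP14 in the activation of MMP2, gave 11.16 and 11.51 in WT and 11.45 and 11.47 in KO and a difference of 0.12 (SE 0.16, adjusted p = 0.736). *Timp4* gave 7.73 and 8.24 in WT and 8.16 and 8.04 in KO and a difference of 0.11 (SE 0.19, adjusted p = 0.797). Both overlapped, and without WT replicate 1 they turned to -0.058 and -0.14.

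The remaining 15 members were *Adamts4*, *Adamts6*, *Adamts8*, *Adamts9*, *Adamts16*, *Adamts19*, *Adamts20*, *Mmp1a*, *Mmp7*, *Mmp14*, *Mmp17*, *Mmp19*, *Mmp21*, *Mmp24* and *Mmp27*. Of these, the mean was higher in KO for 7 and lower for 8, with differences from -0.28 to 0.27 and adjusted p from 0.429 to 0.985. *Mmp14*, the membrane enzyme that activates MMP2, was measured at 11.30 and 11.39 in WT and 11.45 and 11.44 in KO, with a difference of 0.098. The WT arrays of *Mmp19* lay far apart, at 8.25 and 9.07, on either side of its KO arrays. *Adamts9*, a versican-cutting protease, had 6 probe sets, 2 with a higher and 4 with a lower mean in KO.

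Over the members, the 2 WT arrays lay further apart than the 2 KO arrays for 33 of 44, or 75%, against 67.2% of all genes. The median distance between the arrays of a genotype was 0.25 in WT and 0.10 in KO for the members. For *Adamts18*, *Mmp8*, *Adamts15*, *Adamts7* and *Timp3* the difference between genotypes was larger than the distance between the arrays of either genotype. The same held for other members, among them *Adamts14*, *Adamts1*, *Adamts17*, *Adamts5*, *Mmp28*, *Mmp9* and *Mmp16*. The share of all genes for which it holds was not counted, so the list has no baseline. Groups without overlap, a looser condition, made up 17.6% (higher in KO) and 31.8% (lower in KO) of all genes.

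The wider pathway was read from 50 further genes: regulators that activate or inhibit these proteases, related metalloproteinases, ADAMTS-like proteins and proteoglycan substrates. The ADAMTS-like gene *Adamtsl2* fell and was the 1 gene of the 50 that passed the test, against 0.702% of all genes. *Adamtsl2* encodes a glycoprotein without a protease domain that binds fibrillin-1 and is mutated in geleophysic dysplasia. It was measured at 11.03 and 10.72 in WT and 9.72 and 9.59 in KO. Both KO arrays lay below both WT arrays, and the difference was -1.22 (SE 0.15, 2.33-fold lower, adjusted p = 0.0303). The call was lost when either KO array was left out, with differences of -1.29 and -1.16 and adjusted p of 0.525 and 0.895. In those limma fits 1 and 0 of all genes were called, with 1057 and 968 at an unadjusted p under 0.05. Of the 7 ADAMTS-like genes 6 had a lower mean in KO, against 58.8% of all genes, with a median of -0.21. *Adamtsl4*, another fibrillin-binding protein, gave 9.05 and 8.97 in WT and 8.20 and 8.25 in KO, with a difference of -0.78 (adjusted p = 0.0591). *Adamtsl3* and *Adamtsl5* differed by -0.42 and -0.21.

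**Figure D5:**
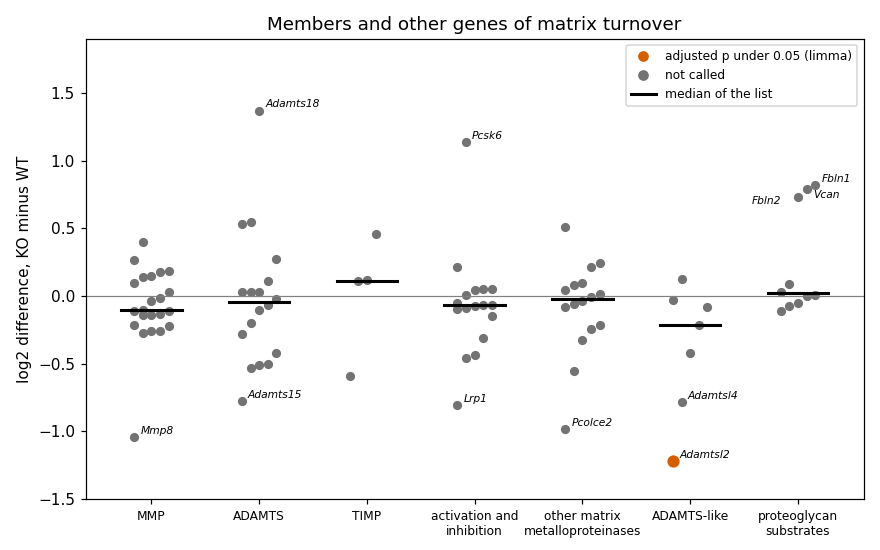
Log2 difference, KO minus WT (y axis), of each member by family and of 50 further genes of matrix turnover by list, with the median of each list as a bar. *Adamtsl2*, at -1.22, is the gene with an adjusted p under 0.05 by limma.

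Among 17 measured activators and inhibitors, the KO mean was higher for 6 and lower for 11, with a median of -0.07 and 0 calls. *Pcsk6*, a proprotein convertase that cuts proenzymes, was measured at 9.25 and 9.70 in WT and 10.68 and 10.54 in KO, higher on each KO array than on each WT array, with a difference of 1.14 (SE 0.18, adjusted p = 0.0577). The inhibitors *Serping1* and *A2m* differed by -0.46 and -0.43. *Lrp1*, the endocytic receptor that clears protease and inhibitor complexes, was measured at 12.16 and 10.91 in WT and 10.72 and 10.75 in KO, and its difference of -0.81 was -0.18 without WT replicate 1.

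Of 16 related metalloproteinases and their enhancers, the KO mean was higher for 7 and lower for 9, with a median of -0.02 and 0 calls. *Pcolce2*, an enhancer of procollagen C-proteinase, was measured at 10.04 and 10.24 in WT and 9.37 and 8.95 in KO, with a difference of -0.98 (SE 0.18, adjusted p = 0.0798). *Tll1*, a procollagen C-proteinase, differed by -0.55, *Adam8*, a leukocyte metalloproteinase, by -0.33, and *Adam12*, a metalloproteinase of growing mesenchyme, by 0.51.

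Of 10 proteoglycan substrates and their partners, the KO mean was higher for 7 and lower for 3, against 41.2% and 58.8% of all genes. The median was 0.02, with 0 calls. *Vcan*, the versican gene and a substrate of the ADAMTS proteoglycanases, was measured at 10.72 and 10.37 in WT and 11.36 and 11.31 in KO. Both KO arrays lay above both WT arrays, with a difference of 0.79 (SE 0.16, adjusted p = 0.0937). The fibulin genes *Fbln1* and *Fbln2*, whose products bind versican, differed by 0.82 and 0.73, with no overlap in either. *Bcan*, the brevican gene of brain, differed by -0.11, or by 0.0065 after cyclic loess. The stromal proteoglycan genes *Lum* and *Dcn*, outside these lists, rose by 2.05 and 1.13, while 5 of the 12 mesenchyme markers they belong to had a lower mean in KO.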

How the data were processed

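E18.5 lung RNA was measured on Affymetrix arrays in 2 WT and 2 *Hmga2*-KO samples. The authors deposited log2 values for 30177 probe sets. The submitters' processing notes name RMA and Affymetrix Expression Console, without versions, and the values hold no detection calls. RMA corrects background, quantile-normalizes arrays and summarises probes, which compresses differences of dim probe sets. No annotation release was named.

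Probe sets with exactly 1 symbol in the platform annotation were kept (21789, while 1621 had several and 6767 none), and the brightest stood for each of 19938 genes. All 44 members matched RefSeq (GRCm38.p6) by Entrez ID. The difference KO minus WT was fitted over all genes in R 4.3.3 with limma 3.58.1 (lmFit, then eBayes, with 2 residual and 4.42 prior degrees of freedom and no replicate block). Benjamini-Hochberg adjustment ran over all genes, with a threshold of 0.05. The code was tested on simulated data. Intervals are at 95%, and their precision is limited by the number of arrays.

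Values were given singly for the TIMPs and for the 3 members of each role class with the smallest unadjusted p, and for up to 4 genes of each pathway list by the same order. The members, classes and lists were chosen with earlier results of these data known. Alternatives were a replicate block, centring, cyclic loess, leaving out the dimmest 40% of genes, the mean of a gene's probe sets, trend and robust eBayes, a threshold of 0.10 and leaving out each array. Promoter letters were searched in RefSeq windows. Plots used Python 3.11.15 and matplotlib 3.10.9.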

Additional observations from a re-analysis of the deposited data

How the results depend on the processing

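With 2 arrays per genotype, 0 members passed limma's adjusted threshold, while 9 had an unadjusted p under 0.05. The count of members called was also 0 with each array centred on its median (173 of all genes called) and with cyclic loess (350). It was 0 too with the mean of all probe sets (147) and with trend and robust eBayes (196). The member count was 1 without the dimmest 40% of genes, against 2.52% of the genes in that fit. It was 2 at a threshold of 0.10, at which the count over all genes was not taken. Leaving out 1 array each gave 0 to 19 calls. With the replicate number as a block the count was 3 (*Adamts18*, *Mmp8* and *Adamts15*), and with the numbers crossed, an alternative chosen after seeing the data, it was 1. Same-numbered arrays did not deviate together (correlation over all genes -0.24), so the numbers were not taken as pairs. Among the 50 pathway genes the count was 1. It was 6 with the replicate block, 4 with the crossed block, 2 after centring, 3 after cyclic loess, 4 without the dimmest 40% of genes, 5 at a threshold of 0.10 and 0 to 15 with 1 array left out. All genes gave 156 calls (16 higher and 140 lower), 602 with the replicate block, 512 with the crossed block, 350 after cyclic loess (80 higher and 270 lower), 301 without the dimmest 40%, and 0 to 6292 with 1 array left out.

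The median of MMP genes, -0.10, was 0.030 after cyclic loess and 0.14 over the 7 left without the dimmest 40% of genes. With 1 array left out it ranged from -0.13 to -0.041, the ADAMTS median from -0.18 to 0.018 and the TIMP median from -0.10 to 0.33. Among the genes described singly, cyclic loess turned the direction of *Adamts3* (-0.024), *Mmp1b* (0.034), *Bcan* (0.0065) and *Hmga2* (-0.0058). With 1 array left out, *Adamts3* ranged from -0.0068 (without KO replicate 1) to 0.069 and *Hmga2* from -0.076 (without KO replicate 1) to 0.18, with -0.069 without WT replicate 1. Among them it also turned without WT replicate 1 for *Adamts12* (-0.22 to 0.0060 over the arrays left out), *Mmp11* (-0.035 to 0.31), *Mmp25* (-0.014 to 0.38), *Timp2* (-0.058 to 0.29) and *Timp4* (-0.14 to 0.36). Of the 15 members given by range, cyclic loess turned *Adamts9*, *Adamts16*, *Mmp1a*, *Mmp7*, *Mmp21* and *Mmp27*. Leaving out 1 array turned *Adamts6*, *Adamts19*, *Mmp17*, *Mmp19* and *Mmp24* as well. Centring turned *Adamts6*, *Mmp7* and *Mmp19*, and the mean of all probe sets turned *Adamts9*. *Mmp19* ranged from -0.43 without WT replicate 1 to 0.40 without WT replicate 2. The cause was not tested. The other members described singly kept their direction under all alternatives run. Signal over background could not be judged, since the values hold no detection calls.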
